A study of Ursus arctos with 5 samples.

Results

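Ubiquitin E3 ligase genes of the grizzly bear gastrocnemius, a calf muscle, were compared between hibernation and the active season. The members were every transcript whose gene symbol began with one of 11 family stems, TRIM, FBXO, FBXL, FBXW, RNF, KLHL, CUL, ASB, HERC, HECTD and MARCH. They came to 166 transcripts of 99 genes, out of 9093 named transcripts of 4873 genes and 26614 transcripts in all. The largest families were RNF with 26 genes, TRIM with 16, KLHL with 13, FBXO with 12 and FBXL with 10. Each of 2 captive bears, Tia and Star, gave a muscle biopsy in the active month of October and another in hibernation, in February, so there were 4 RNA-seq libraries, 2 for a state and 2 for a bear. The labels name no transgene and no drug treatment, and the animals served as their own active controls. By the methods of the study, the bears were anaesthetized for biopsy with tiletamine and zolazepam, at a higher dose when active, and kept under isoflurane. Feeding stopped in early November and resumed in March. Anaesthetic dose, feeding and season therefore went with the state and cannot be told apart from it. The labels call the animals adults of 10 years, whereas the methods of the study speak of a subadult and an adult.

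An E3 ligase is the last enzyme of the ubiquitin cascade and selects the protein that is to be tagged, often for breakdown by the proteasome. RING proteins such as the TRIM, RNF and MARCH families bring the ubiquitin-carrying E2 enzyme to the substrate, HECT proteins such as the HERC and HECTD families take the ubiquitin over themselves first, and cullins are scaffolds that hold a RING subunit at one end and an exchangeable substrate adaptor at the other. F-box proteins (FBXO, FBXL, FBXW) are the adaptors of CUL1, BTB-kelch proteins (KLHL) those of CUL3, and SOCS-box proteins such as ASB those of CUL5. Some ligases, among them TRIM63 (MuRF1) and FBXO32 (atrogin-1), are known for high transcript levels in muscle that is wasting.

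The values are RPKM, reads per kilobase of transcript and M (mega) aligned reads, and a change is the difference in log2(RPKM + 0.5), February minus October. The 4 libraries corresponded to 44.7 to 54.2 M aligned reads, and a member transcript had at least 22.03 reads in its lowest library, with a median of 435 for that lowest count. All deposited values were at least 1 RPKM, so a ligase transcript under 1 RPKM in any library was not analysed here, and the changes of the 20 member genes with a lowest value under 2 RPKM are bounded by that. Muscle markers were plentiful, though only 2 of 8 listed were analysed. TTN went from 794 RPKM in October to 700 in February in Tia and from 598 to 155 in Star. RYR1 went from 295 to 406 and from 607 to 605. The fibre-type markers MYH7 and MYH2 ranged from 1295 to 3004 and from 2755 to 3863. Of the markers of other cell types, 2 were at least 1.5-fold higher in February in both bears, COL3A1, a fibroblast collagen (116 to 254 RPKM in Tia, 136 to 210 in Star), and CD68 of macrophages (3.94 to 6.41 and 3.28 to 7.12). Others moved most in the October library of Tia: COL1A1, another fibroblast collagen, went from 193 to 11.0 RPKM in Tia and from 6.79 to 9.15 in Star, and S100B of nerve from 13.1 to 2.12 and from 1.19 to 3.44. Of 7 markers of fast fibres 4 were analysed, and 3 of them were lower in February in both bears, MYH1 (4823 to 2054 RPKM in Tia, 7801 to 7625 in Star), TNNC2 (1860 to 1198 and 2347 to 1950) and ATP2A1 (202 to 167 and 336 to 308). The other, MYH2, was higher in both bears (2755 to 3841 and 3493 to 3863). Of 6 markers of slow fibres 2 were analysed. MYH7 was lower in February in both bears (3004 to 2872 RPKM in Tia, 1839 to 1295 in Star) and ATP2A2 higher in both (112 to 142 and 56.9 to 67.9). In summed level over the markers analysed, the 3 fibroblast markers ran from 223 to 269 RPKM in February and from 146 to 312 in October, and the 2 endothelial ones from 17.4 to 21.4 and from 12.3 to 22.4. Of the listed markers, 3 of 6 fibroblast, 2 of 6 endothelial, 1 of 8 blood (CD68), 1 of 5 nerve and 0 of 6 adipocyte genes were analysed here, and the part of other cells or of fibre types in the results was not tested. In whole muscle, fewer cells of a type and less RNA per cell cannot be told apart.

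Most ligase transcripts stood near their active level in hibernation. The median change over the 99 genes was 0.14, against 0.15 over all named genes, and 81 of the 99 had a mean change smaller than 0.5 in size. Small changes were a trait of the whole table: the median size of the mean change was 0.24 for the members and 0.26 for all named genes. By limma, with Benjamini-Hochberg adjustment over all transcripts, no member transcript passed an adjusted p of 0.05, and neither did any of the 26614 (0%). The adjusted p of the members ran from 0.577 to 1.00. Before adjustment, 5 member transcripts (3.01%) were higher and 3 (1.81%) lower with limma p under 0.05, against 6.99% and 1.42% of all transcripts. The higher ones belonged to TRIM29, TRIM13, CUL9, FBXO9 and CUL1, and the lower ones were 3 transcripts of KLHL21. With the bear as a replicate block these became 17 transcripts of 13 genes and 7 transcripts of 3 genes, against 10.9% and 2.78% of all, and the lowest adjusted p of a member by limma was then 0.220. An exact permutation test of 1 gene in 2 against 2 libraries cannot go below p = 0.333. The words higher and lower below are therefore descriptions of the values.

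Taking for each gene its most-read transcript, 47 of the 99 were higher in February in both bears, 16 were lower in both and 36 went opposite ways, close to the 48.7%, 16.1% and 35.2% of all named genes. At 1.5-fold in both bears on the log2(RPKM + 0.5) scale, 3 genes were higher (TRIM29, TRIM13 and CUL9) and 0 lower, against 3.84% and 1.01% of all named genes. By the ratios of RPKM alone, an alternative chosen after seeing the data, KLHL13, TRIM7 and FBXW12 joined them for 6 higher and KLHL21 was lower, against 5.19% and 1.31%. The February values lay wholly above the October values in 36 genes and wholly below in 9, where all named genes gave 35.8% and 8.11%. These directions rest on the scaling: dividing the libraries by their median ratio lowered the median change of all transcripts by 0.14, after which 28 ligase genes were higher in both bears and 28 lower in both, where all named genes gave 30.4% and 31.2%. Scaling by the upper quartile lowered it by 0.18 and gave 27 and 33, beside 27.9% and 34.6%. A score after the NOISeq method, the share of differences between bears within a state that a change exceeds in both ratio and size, reached its threshold of 0.8 in 1 member transcript, that of TRIM29, higher in February. Over all named transcripts 2.1% reached it higher and 1.51% lower.

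**Figure D1:**
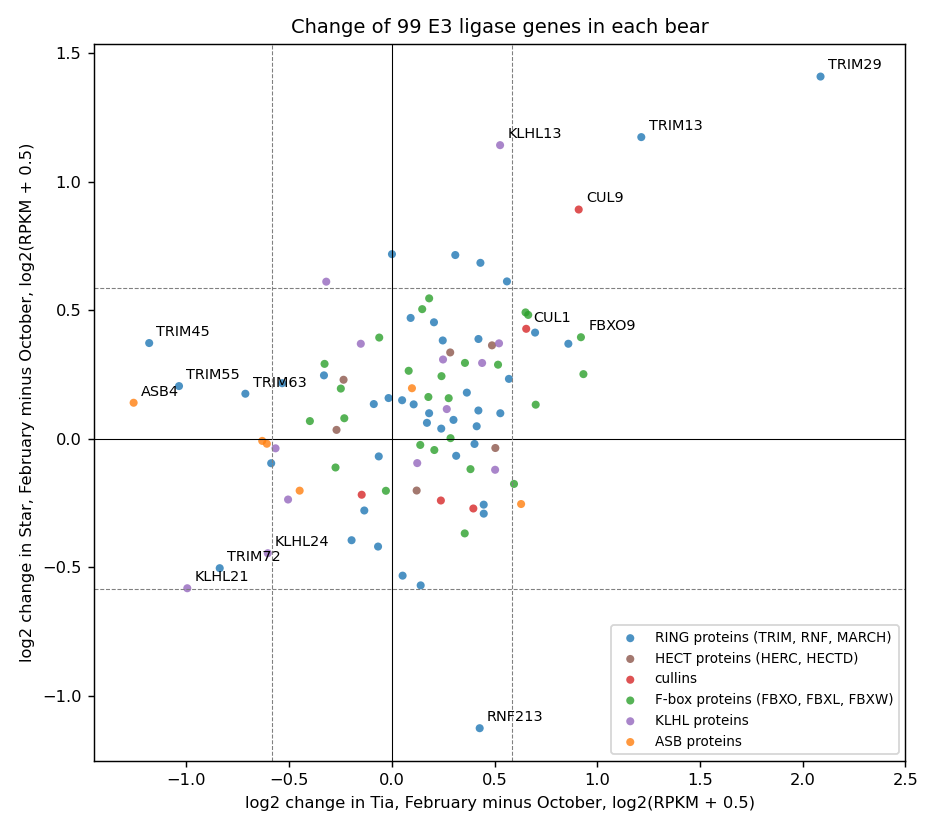
Log2 change of each of the 99 ligase genes in Tia (horizontal axis) and in Star (vertical axis), February minus October on the log2(RPKM + 0.5) scale, coloured by class, with dashed lines at 1.5-fold. TRIM29, TRIM13 and CUL9 lie beyond the lines at the upper right, KLHL21 and TRIM72 are farthest to the lower left, and TRIM45, ASB4, TRIM55, TRIM63 and RNF213 went opposite ways in the bears.

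Among the ligases known in muscle, the 4 TRIM genes analysed here did not share a course. TRIM63, which binds titin and marks thick-filament proteins for breakdown, went from 71.2 RPKM in October to 43.3 in February in Tia and from 45.1 to 51.0 in Star. The October value of Tia stood above the other 3 libraries, which lay close together, and the states overlapped (changes of -0.71 and 0.17, mean -0.27 with a limma SE of 0.28, adjusted p = 0.766). Under both other scalings the change in Star was -0.04. TRIM55 (MuRF2), its relative on microtubules and titin, went from 5.79 to 2.57 RPKM in Tia and from 3.62 to 4.24 in Star. The February value of Tia was the lowest and its October value the highest, so the states overlapped here too. TRIM72 (MG53), which patches tears of the muscle membrane, had the highest level of all the ligases and went from 112 to 62.4 RPKM in Tia and from 163 to 115 in Star. It was lower in February in each bear, but the values of Star lay above those of Tia in the same state and the states overlapped (mean change -0.67, SE 0.36, limma adjusted p = 0.637). With the bear as a block its SE was 0.21 and its limma adjusted p 0.299. The TRIM72 transcript holds only 282 bases. TRIM32, mutated in a limb-girdle muscular dystrophy, was level at 4.22 and 4.02 RPKM in Tia and at 4.12 and 3.90 in Star, October first.

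Of the 14 genes on that muscle list, 6 were analysed here, the other two being FBXO21 and FBXO31. FBXO21, an F-box protein linked to muscle loss, went from 4.25 to 5.12 RPKM in Tia and from 4.15 to 4.998 in Star. Its February values were above its October values in both bears, by the same 0.24 on the log2 scale in each. FBXO31, an adaptor for cyclin D1, went from 27.6 to 31.3 RPKM in Tia and from 35.1 to 39.3 in Star, a mean change of 0.17 in which the states overlapped and which was -0.03 under upper-quartile scaling. By count, 2 of the 6 were higher in both bears, 2 lower in both and 2 opposite, and 0 passed the adjusted test. TRIM54, FBXO32, FBXO40, FBXO30, ASB2 and KLHL31 were not analysed here. KLHL40 and KLHL41, kelch proteins of the sarcomere, stand in the table under the older symbols KBTBD5 and KBTBD10 and were outside the rule. KBTBD10 was far above any member, at 2345 and 4128 RPKM in Tia and 3054 and 3767 in Star, October first (mean change 0.56, SE 0.39, limma adjusted p = 0.692), and KBTBD5 stayed between 3.64 and 4.38.

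The widest changes of all members were in other TRIM genes. TRIM29, a TRIM protein without a RING domain that is known from epithelia and from the response to DNA damage, went from 1.64 to 8.61 RPKM in Tia and from 2.46 to 7.37 in Star. Both February values were well above both October values, a ratio of RPKM of 5.24 in Tia and 2.99 in Star (mean log2 change 1.75, SE 0.28, limma adjusted p = 0.577, score 0.908). At least 309 reads stood behind each value. TRIM13, a ligase anchored in the endoplasmic reticulum, went from 1.79 to 4.81 RPKM in Tia and from 1.07 to 3.05 in Star. The states did not overlap, and the bears differed little in their changes, 1.21 and 1.17, although the October value of Star is close to the floor of 1 RPKM. Its score was 0.792, just under the threshold. COL3A1 and CD68 were higher in the same 2 libraries as TRIM29 and TRIM13. COL1A1 and S100B, in contrast, were lower in February in Tia and higher in Star. The part of these markers was not tested. TRIM45, described as a repressor of MAP kinase driven transcription, went from 24.7 to 10.6 RPKM in Tia and from 12.3 to 16.0 in Star. Only the October library of Tia stood out, and without it the mean change turned from -0.40 to 0.09. COL1A1 and S100B were highest in that same library, whereas the fibroblast collagens COL3A1 and COL1A2 were lowest there (116 and 2.59 RPKM). The part of these markers was not tested.

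Across the 16 TRIM genes, 9 were higher in both bears, 3 lower and 4 opposite, and all 4 of the last were lower in Tia and higher in Star, TRIM63 only with the values as deposited. Besides TRIM29 and TRIM13 the higher ones were TRIM7, TRIM8, TRIM27, TRIM33, TRIM39, TRIM41 and TRIM44. TRIM7 went from 6.70 to 10.1 RPKM in Tia and from 8.46 to 13.2 in Star. TRIM27 went from 6.03 to 10.1 and from 5.67 to 7.71. In both genes every February value exceeded every October value. TRIM21, TRIM32 and TRIM72 were the lower ones. Under the other 2 scalings the family had 7 higher and 4 lower.

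**Figure D2:**
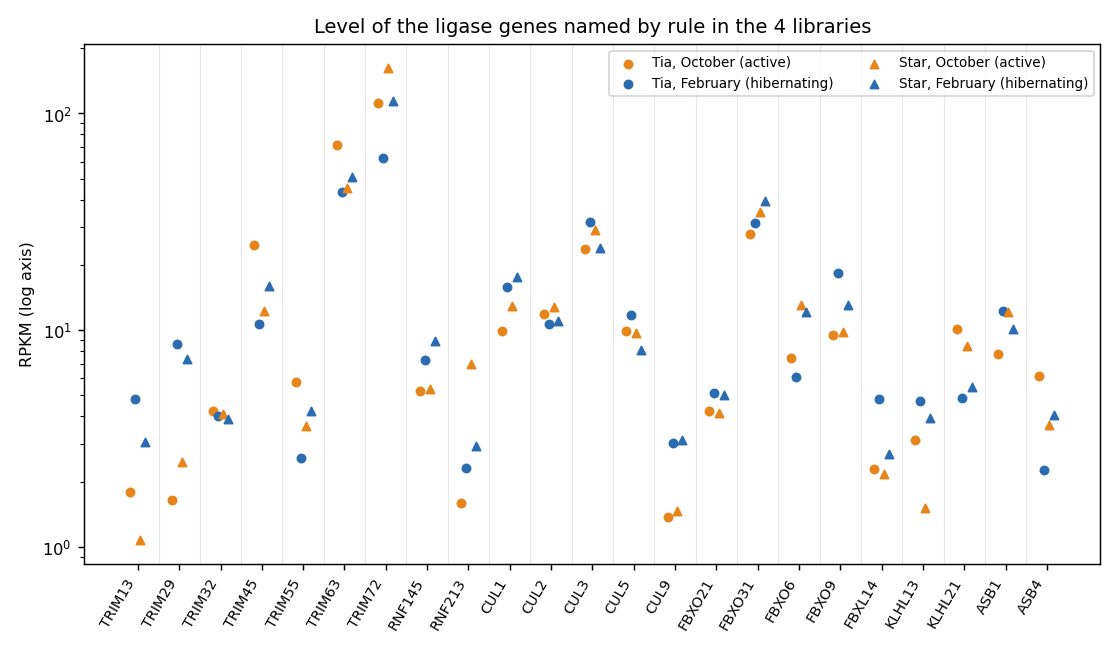
RPKM of 23 ligase genes named by rule (logarithmic axis) in each of the 4 libraries, with circles for Tia, triangles for Star, orange for October and blue for February. TRIM72 and TRIM63 lie highest, both blue symbols of TRIM29, TRIM13 and CUL9 lie above both orange ones, those of KLHL21 lie below, and TRIM32 is level at about 4.

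The 26 RNF genes, RING proteins of many kinds, split into 13 higher in both bears, 3 lower and 10 opposite. That surplus of higher genes turned with the scaling, to 3 higher and 8 lower by median ratio and 3 higher and 9 lower by upper quartile. RNF145, a sterol-sensing ligase of the endoplasmic reticulum, had the largest mean change upward, from 5.25 to 7.25 RPKM in Tia and from 5.37 to 8.93 in Star. Both February values were above both October values (mean change 0.56, SE 0.24, limma adjusted p = 0.592). RNF213, a very large ligase with an ATPase motor, had the largest mean change downward and the widest disagreement between the bears. It went from 1.60 to 2.32 RPKM in Tia and from 6.99 to 2.93 in Star, so that the October library of Star alone was high. Leaving that library out turned its mean change from -0.35 to 0.57. The most abundant were RNF11, at 39.2 and 35.7 RPKM in Tia and 41.8 and 34.3 in Star, October first, and RNF126, at 23.6 and 26.1 in Tia and 36.7 and 24.6 in Star. RNF11 was lower in each bear and its states did not overlap, as in RNF144B (8.51 to 7.37 and 8.85 to 6.61) and RNF141 (2.81 to 1.70 and 1.86 to 1.71). RNF31, the catalytic subunit of the complex that builds linear ubiquitin chains, stayed between 11.9 and 17.3 RPKM, and RNF146, which recognizes poly-ADP-ribosylated proteins, between 15.2 and 20.3.

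MARCH9, a membrane-bound RING ligase that removes receptors from the cell surface, was the only member of its family analysed and went from 3.12 to 6.06 RPKM in Tia and from 4.67 to 6.18 in Star. Its February values did not overlap its October values (mean change 0.61, SE 0.28, limma adjusted p = 0.601). Among the HECT ligases, HERC1, the most abundant, was at 10.2 and 14.6 RPKM in Tia and at 8.75 and 8.52 in Star, October first. HERC4 (2.62 to 3.30 and 2.10 to 2.78) and HECTD3 (6.82 to 9.77 and 8.88 to 11.6) were higher in both bears, and HERC2 and HERC3 had mean changes of -0.04 and -0.00.

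The 5 cullin scaffolds differed from each other. CUL1, the core of the SCF ligases that F-box proteins serve, went from 9.87 to 15.8 RPKM in Tia and from 12.9 to 17.6 in Star. The February values lay above the October values in all 4 of its transcripts (mean change of the transcript with the most reads 0.54, SE 0.23, limma adjusted p = 0.597). CUL9 (PARC), a cytoplasmic cullin that binds p53, went from 1.37 to 3.01 RPKM in Tia and from 1.46 to 3.13 in Star. This was a change of 0.91 and 0.89, the most alike between bears of the 3 genes past 1.5-fold, but on a fragment of 584 bases with 38.0 reads in its lowest library. CUL2, scaffold of the VHL ligase, was slightly lower, at 11.9 and 10.7 RPKM in Tia and 12.9 and 11.0 in Star, October first, without overlap. CUL3, which the KLHL proteins serve, went from 23.8 to 31.4 RPKM in Tia and from 29.1 to 24.0 in Star, and CUL5, which the ASB proteins serve, from 9.93 to 11.8 and from 9.69 to 8.12. Both were thus higher in Tia, lower in Star and near 0 in mean change (0.06 and -0.00).

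The F-box adaptors gave 9 of 12 FBXO genes higher in both bears and 1 lower, 3 of 10 FBXL genes higher and 0 lower, and 2 of 4 FBXW genes higher and 1 lower. After scaling by the median ratio these were 5 and 2, 2 and 2, and 2 and 1. FBXO9, an adaptor in mTOR signalling, had the largest mean change among them, from 9.47 to 18.4 RPKM in Tia and from 9.77 to 13.0 in Star. Both its February values stood above its October values, and the October values of the bears were nearly equal (changes of 0.92 and 0.39, mean 0.66, SE 0.25, limma adjusted p = 0.592). FBXO38 (3.38 to 5.64 and 3.30 to 4.81 RPKM) and FBXO3 (8.76 to 11.3 and 9.37 to 11.6) also had both February values above both October values. FBXO6, which recognizes glycoproteins, was the only FBXO gene lower in both bears, from 7.44 to 6.07 RPKM in Tia and from 13.1 to 12.1 in Star, a difference far smaller than that between the bears. FBXL14, an adaptor for the transcription factor Snail, had the largest upward mean change of the FBXL genes, from 2.28 to 4.80 RPKM in Tia and from 2.17 to 2.67 in Star. FBXW7, the adaptor of Myc and cyclin E, was at 7.54 and 7.38 RPKM in Tia and at 4.84 and 4.14 in Star, October first, so that the bears differed more than the states.

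The 13 KLHL genes held 5 higher in both bears, 4 lower and 4 opposite. KLHL21, a CUL3 adaptor known from cell division, had the largest downward mean change of all members. It went from 10.1 to 4.84 RPKM in Tia and from 8.42 to 5.46 in Star, with both February values below both October values (changes of -0.996 and -0.58, mean -0.79, SE 0.24, limma adjusted p = 0.577, score 0.771). The change in Star was just short of 1.5-fold on the log2(RPKM + 0.5) scale, though not by the ratio of RPKM, and under median-ratio scaling KLHL21 passed 1.5-fold in both bears together with TRIM72 and KLHL24, and its score was 0.826. KLHL24, at 30.6 and 19.9 RPKM in Tia and 12.1 and 8.78 in Star, October first, was lower in each bear but higher throughout in Tia. KLHL13, another CUL3 adaptor of cell division, went the other way, from 3.12 to 4.71 RPKM in Tia and from 1.51 to 3.93 in Star. Its February values lay above its October values (mean change 0.83, SE 0.35, limma adjusted p = 0.592), on a transcript of 831 bases. KLHL12 (6.24 to 9.17 and 5.73 to 7.55) was higher without overlap as well.

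In the values as deposited, the ASB family was the one with more genes lower than higher: 3 of 6 were lower in both bears, 1 higher and 2 opposite, with a median change of -0.32 against 0.15 over all named genes. By either of the other scalings 5 of the 6 were lower in both bears, where the same held for 31.2% and 34.6% of all named genes, and ASB16 was among the 5 with changes of only -0.01 in Tia and -0.02 in Star by median ratio. Of the 4 fast-fibre markers analysed, MYH1, TNNC2 and ATP2A1 were also lower in February in both bears, MYH1 by very little in Star. The other, MYH2, was higher in both, from 2755 to 3841 RPKM in Tia and from 3493 to 3863 in Star. Of the 2 slow-fibre markers analysed, MYH7 was lower in February in both bears and ATP2A2 higher in both. The part of these markers beside ASB8 here and TRIM72 above was not tested. The size of the ASB change came mostly from Tia, with a median of -0.53 there and -0.01 in Star. ASB8, second in level among the ligases, went from 121 to 79.1 RPKM in Tia and from 93.8 to 92.5 in Star. Its February values lay below its October values, by very little in Star. ASB5 (10.4 to 6.52 and 6.24 to 6.19) likewise had a high October value in Tia and nearly equal values in Star, whereas ASB11 (20.7 to 15.05 and 15.6 to 13.5) was lower in both without overlap. ASB4 went from 6.13 to 2.28 RPKM in Tia and from 3.64 to 4.06 in Star, and its October value in Tia was again the highest of the 4. ASB1 went from 7.77 to 12.3 RPKM in Tia and from 12.1 to 10.1 in Star, and ASB16, at 18.7 to 30.6 RPKM, differed more between the bears than between the states. With 6 genes and 2 bears the family was not tested.

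**Figure D3:**
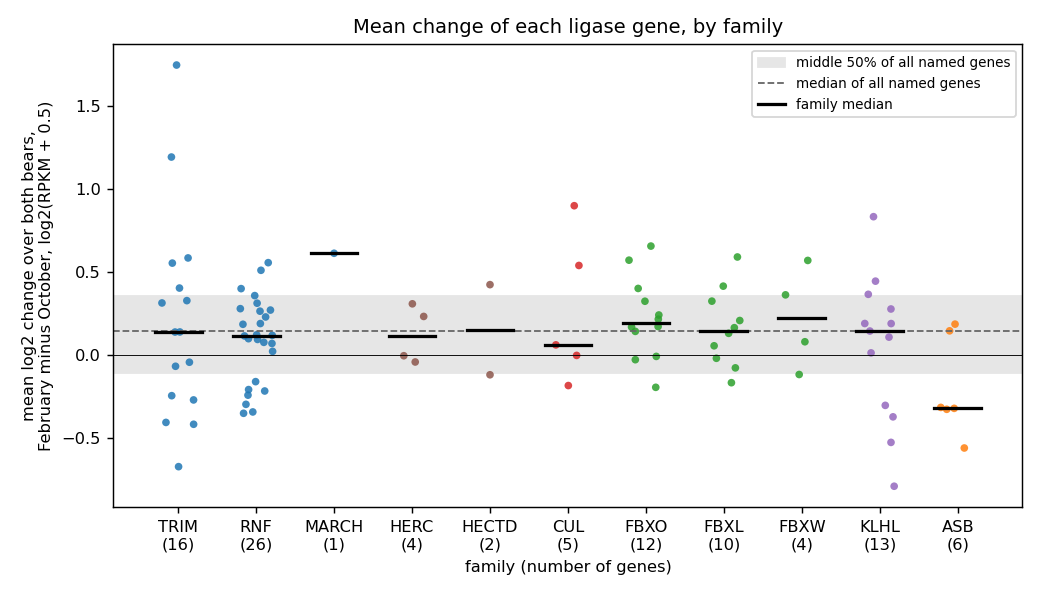
Mean log2 change over both bears of each ligase gene (points) by family, with the family median (bar), the median of all 4873 named genes (dashed) and the band that holds their middle 50%. TRIM29 and TRIM13 lie far above the band, most family medians lie within it, and the ASB median of -0.32 lies below it.

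For 37 genes the assembly gave more than 1 transcript, and these share sequence, so they do not count as separate evidence. In 31 of the 37 all transcripts of a gene had mean changes of 1 sign, and in 6 (FBXL4, FBXL18, HERC2, HERC3, TRIM26 and TRIM39) of both signs. All 5 transcripts of TRIM63 were lower in February in Tia (-0.58 to -0.71), while in Star they ran from -0.04 to 0.17. All 5 of KLHL21 and all 3 of TRIM72 were lower in both bears, and all 8 of KLHL33 and all 4 of CUL1 higher in both. In TRIM26 the short transcript of 1478 bases was higher in both bears (4.01 to 6.07 and 4.17 to 5.21 RPKM), whereas the 3 longer ones were lower in Tia and higher in Star.

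**Figure D4:**
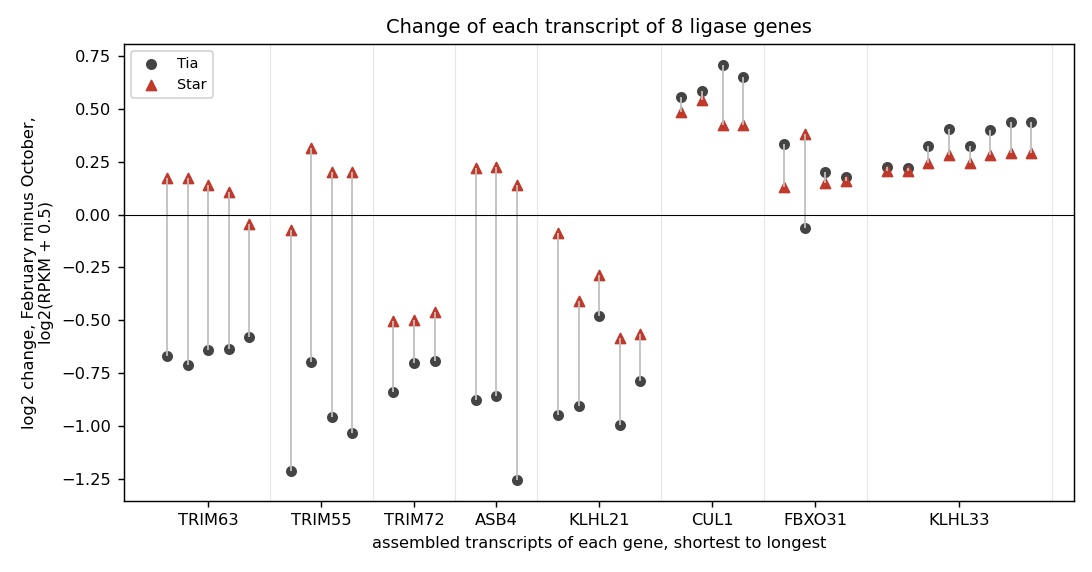
Log2 change in Tia (circles) and in Star (triangles), February minus October on the log2(RPKM + 0.5) scale, for each assembled transcript of 8 ligase genes, ordered by length within a gene. The transcripts of TRIM63, TRIM55 and ASB4 are apart between the bears, with Tia well below 0, whereas those of TRIM72, KLHL21 and CUL1 keep 1 sign in both.

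The bears differed about as much in ligase genes as in others. The median difference in size between the changes of the bears was 0.32 for the members and 0.32 for all named genes. Across the 99 genes, which share their libraries, the changes in Tia and Star had a Pearson r of 0.40, and of 0.26 without TRIM29 and TRIM13. Over all named genes the same r was 0.32. The October library of Tia was at least 1.5-fold above the next highest library in 5 members, ASB4, ASB5, KLHL24, RNF141 and TRIM45 (5.05% against 3.10% of all named genes). The February library of Tia was so in FBXL14, FBXL15, RNF2 and TRIM13 (4.04% against 4.15%). The October library of Star was so in RNF213 (1.01% against 0.70%) and the February library of Star in 0 (0% against 1.54%). Summed over the 99 genes the level was 964 RPKM in October and 899 in February in Tia, and 980 and 968 in Star. Without TRIM72, ASB8 and TRIM63 the sums were 660 and 715 in Tia and 678 and 710 in Star, October first. In Tia these 3 genes were all lower in February. In Star TRIM72 was lower (163 to 115 RPKM), ASB8 nearly level (93.8 to 92.5) and TRIM63 higher (45.1 to 51.0).

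The rest of the ligase machinery was read from lists of genes outside the families. Of 28 genes of the cullin-RING core, which load or remove NEDD8 or link adaptors, 13 were analysed: 5 were higher in both bears, 2 lower and 6 opposite. SKP1, the link between CUL1 and F-box proteins, ranged from 77.05 to 97.2 RPKM, and NEDD8, the ubiquitin-like activator of cullins, from 52.2 to 62.6. Of 49 other adaptors 17 were analysed (5, 3 and 9), none of them 1.5-fold in both bears on the log2(RPKM + 0.5) scale. Of 81 other E3 ligases 31 were analysed (15, 4 and 12). MIB1, a ligase for Notch ligands, went from 19.1 to 10.0 RPKM in Tia and from 7.46 to 2.10 in Star, and TTC3, a ligase for Akt, from 6.90 to 12.2 and from 4.47 to 7.15. On the log2(RPKM + 0.5) scale no other gene of the 3 lists reached 1.5-fold in both bears. By the ratios of RPKM alone NEDD4L, a HECT ligase for sodium channels, did so too, from 6.95 to 10.6 RPKM in Tia and from 8.74 to 14.5 in Star. MIB1 was lower within each bear (changes of -0.90 in Tia and -1.62 in Star), but the bears lay apart and the states overlapped. In the fit without the bear as a block its SE was 0.73 (limma adjusted p = 0.650), and no gene of the 3 lists passed the adjusted test.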

How the data were processed

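The study sequenced full-length cDNA of poly(A) RNA from gastrocnemius. The authors assembled transcripts de novo with Newbler and SOAPdenovo, named them by BLAST against human proteins, aligned single-end reads with SOAP2 and deposited RPKM per bear and state. No bear genome build was involved, and the pooled and paired-end libraries were not analysed here. How reads that match several transcripts were assigned is not given in the sources used here.

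The test was limma (version 3.58.1, R 4.3.3, prior variance with a trend), fitted on log2(RPKM + 0.5) of all 26614 transcripts, with 2 libraries in each state. Replicates are bears, 2 per state. Both libraries of a bear come from 1 animal, so the bear pairs them (deviations of Tia from Star in both months, Pearson r of 0.358), and the block was an alternative. The score used 53228 differences within states. Reads were estimated from the step of RPKM times length, which made 93.8% to 94.5% of the low values whole within 0.1 reads. A gene is given by its transcript with the most reads. Scripts were tested on simulated data. Other steps ran in Python 3.11.15 (pandas 2.3.3, numpy 2.4.6, matplotlib 3.10.9).

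Members, lists and tests were chosen with earlier results of these data known. Named by rule were the muscle list, the cullins, members past 1.5-fold in both bears or past the score, the genes with the largest upward and downward mean change in families of 5 or more, and the 3 with the widest opposite changes. Other members were named after their values were seen, and some genes are not reported here.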

Additional observations from a re-analysis of the deposited data

How the results depend on the processing

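No member transcript passed the adjusted test of limma under any alternative. The one that called any transcript, leaving out the February library of Star, called 35 of 26614 and 0 members (lowest adjusted p 0.0989). The unadjusted limma counts, 5 higher and 3 lower, were 17 and 7 with the bear as replicate block, 3 and 5 by median-ratio scaling, 3 and 6 by upper-quartile scaling, and 8 higher among named transcripts only. With 1 library left out they ran from 3 to 12 and from 0 to 7. Over all transcripts the split of 1859 higher and 378 lower became 865 and 823 by median ratio and 763 and 918 by upper quartile. Among named transcripts only, 7.19% of all were higher and 1.89% lower. With 1 library left out the counts over all transcripts moved as well. Without the February library of Star they rose in both directions, as did those of the members. The ranges of the member counts are therefore not particular to the ligases. Members past the score of 0.8 numbered 5 under both scalings, TRIM29 higher and KLHL21 and 3 TRIM72 transcripts lower. The 4 lower ones were 2.41% of the member transcripts, beside 2.38% of all named transcripts by median ratio and 2.52% by upper quartile. Genes higher in both bears, 47, were 28 by median ratio, 27 by upper quartile and 24 among the 53 with a mean of at least 5 RPKM. Those lower in both, 16, were 28 by median ratio, 33 by upper quartile and 11 among these 53. The 24 and 11 were 45.3% and 20.8% of the 53, beside 54.6% and 14.0% of all named genes with such a mean. In 1 bear alone, 64 to 66 were higher and 33 to 35 lower, beside 60.5% to 72.1% and 27.8% to 39.4% of all named genes. Those past 1.5-fold higher, 3, were 4 with a pseudocount of 0.1, 6 with none (chosen after seeing the data), 1 at a mean of at least 5 RPKM and 9 to 13 in 1 bear alone. Those past it lower, 0, were 1 with a pseudocount of 0.1 or none, 3 under either scaling and 1 to 10 in 1 bear alone. Of all 4873 named genes, 234 passed it higher and 61 lower with a pseudocount of 0.1, and 253 and 64 with none. By median ratio 69 were past it higher and 103 lower, and by upper quartile 63 and 113. Among the 2423 with a mean of at least 5 RPKM they were 104 and 36, and in 1 bear alone 482 to 746 and 128 to 578. The median of 0.14 was -0.0050 by median ratio and -0.038 by upper quartile, and 0.13 to 0.21 in 1 bear alone. The block changed no other call.

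Of 23 named genes, 10 changed direction in some alternative. With 1 library or bear left out, the mean change ran from -0.25 to 0.63 in ASB1, -1.26 to 0.14 in ASB4, -0.27 to 0.40 in CUL3, -0.26 to 0.26 in CUL5, -1.1e-05 to 0.34 in FBXO31, -0.66 to 0.28 in FBXO6, -1.27 to 0.57 in RNF213, -1.18 to 0.37 in TRIM45, -1.04 to 0.20 in TRIM55 and -0.71 to 0.17 in TRIM63. Scaling by the upper quartile gave -0.0079 in ASB1, -0.14 in CUL3 and -0.032 in FBXO31, and the median ratio -0.10 in CUL3. Such directions rest on single libraries, and with 2 bears a state and values listed from 1 RPKM upward, small changes and low transcripts were not resolved. A lone library was assumed to vary like the other state.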
